A study of Homo sapiens with 6 samples.

Results

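The 10 genes described here carry out V(D)J recombination and the joining of the DNA ends it leaves: RAG1, RAG2, DNTT, XRCC5, XRCC6, PRKDC, DCLRE1C, XRCC4, LIG4 and NHEJ1. They were chosen by name, and a probe was taken as theirs where the accession printed beside it in the scanner output belongs to that gene in RefSeq. This gave 12 probes of 57176 on the array and 10 genes of 19699 that could be named. The cells were RPMI8402 (RMPI8402 in some labels), a long-established line grown from a human T-cell acute lymphoblastic leukaemia. They received lentivirus for a control, for shGATA3, a short hairpin RNA against the transcription factor GATA3, or for shTCF1 (shcTCF1 in some labels), a hairpin against TCF7, which encodes the transcription factor TCF1. In all 3 groups EGFP+ cells were sorted 48 h after transduction, and each group had 2 one-colour arrays. The study's legends call the arrays of a group independent experiments, and the labels do not say which steps were repeated. All came from 1 cell line, and p-values measure the spread between these samples.

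V(D)J recombination assembles the antigen receptor genes of developing T and B cells. RAG1 and RAG2 form the recombinase that cuts beside the gene segments and leaves sealed hairpin ends. Ku, a dimer of the XRCC6 and XRCC5 proteins, binds the ends and recruits the kinase DNA-PKcs (PRKDC), Artemis (DCLRE1C) opens the hairpins, and XRCC4, LIG4 and XLF (NHEJ1) seal the joint. DNTT, the terminal transferase TdT, adds bases at the joint without a template. RAG1, RAG2 and DNTT are restricted to lymphoid precursors, whereas the end-joining genes are used by nearly every cell to mend broken DNA.

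The hairpins were first checked on their own targets. Values are normalized log2 intensities throughout unless stated otherwise, so a difference of 1 is a doubling. The GATA3 probe read 9.54 and 9.56 on the control arrays, 9.46 and 9.55 on those labelled shGATA3, and 9.76 and 9.90 on those labelled shTCF1. GATA3 was thus not detectably lower with its own hairpin (difference -0.05, SE 0.10, 95% interval -0.31 to 0.21, adjusted p = 0.795, limma), and every direction below is that of the arrays labelled shGATA3. TCF7 read 13.96 and 13.91 in the control, 14.26 and 14.27 with shGATA3 and 12.58 and 12.68 with shTCF1. It fell by 1.31 with shTCF1 (adjusted p = 0.00393).

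The control arrays were brighter before normalization, with a 75th percentile of intensity of 270 and 287 against 165 to 179 on the hairpin arrays. All 6 arrays lay on 1 slide, where the controls share 1 number of the position code and the 4 hairpin arrays another, so position and hairpin cannot be told apart in either comparison with the control. The comparison of shGATA3 with shTCF1 lies within 1 such number. The other number of the code was 3 and 4 for shGATA3 and 1 and 2 for shTCF1. Position and hairpin thus cannot be told apart there either. Of 13 T-lineage markers 10 were well above background on all 6 arrays, and CD1E was on none. The B-lineage markers CD79A and MS4A1 were also above background on every array. Of the 4 NK markers NCR1 and NCAM1 were above background on all 6 arrays, each by 1 probe only, and KLRD1 and KLRF1 on none. The other probes of NCR1 and NCAM1 were above background on no array. Of the 3 myeloid markers measured CD14 and MPO were above background on all 6 and CD33 on none.

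A limma fit over all 6 arrays compared the groups, and a gene was called at an adjusted p below 0.05. Of the 10 genes 9 had a tested probe and 7 were well above background on all 6 arrays. With shGATA3 1 of 9 was called, DNTT, which was higher, where 6.93% of all 14488 genes tested were called. With shTCF1 1 of 9 was called, RAG1, against 16.2% of all genes. RAG1 entered the test only through the control arrays, the group where it was high, so nothing is read from that count. Between shGATA3 and shTCF1 1 of 9 was called, again DNTT, against 6.58%. The 7 end-joining genes gave 0 calls in all 3 comparisons, with 1, 3 and 0 at an unadjusted p under 0.05 in limma. Such a p was common, at 3909, 4978 and 3321 of all 14488 genes tested. The median difference over the 9 genes was -0.09 with shGATA3, -0.21 with shTCF1 and 0.05 between the hairpins, beside -0.03, -0.05 and 0.00 over all genes.

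**Figure D1:**
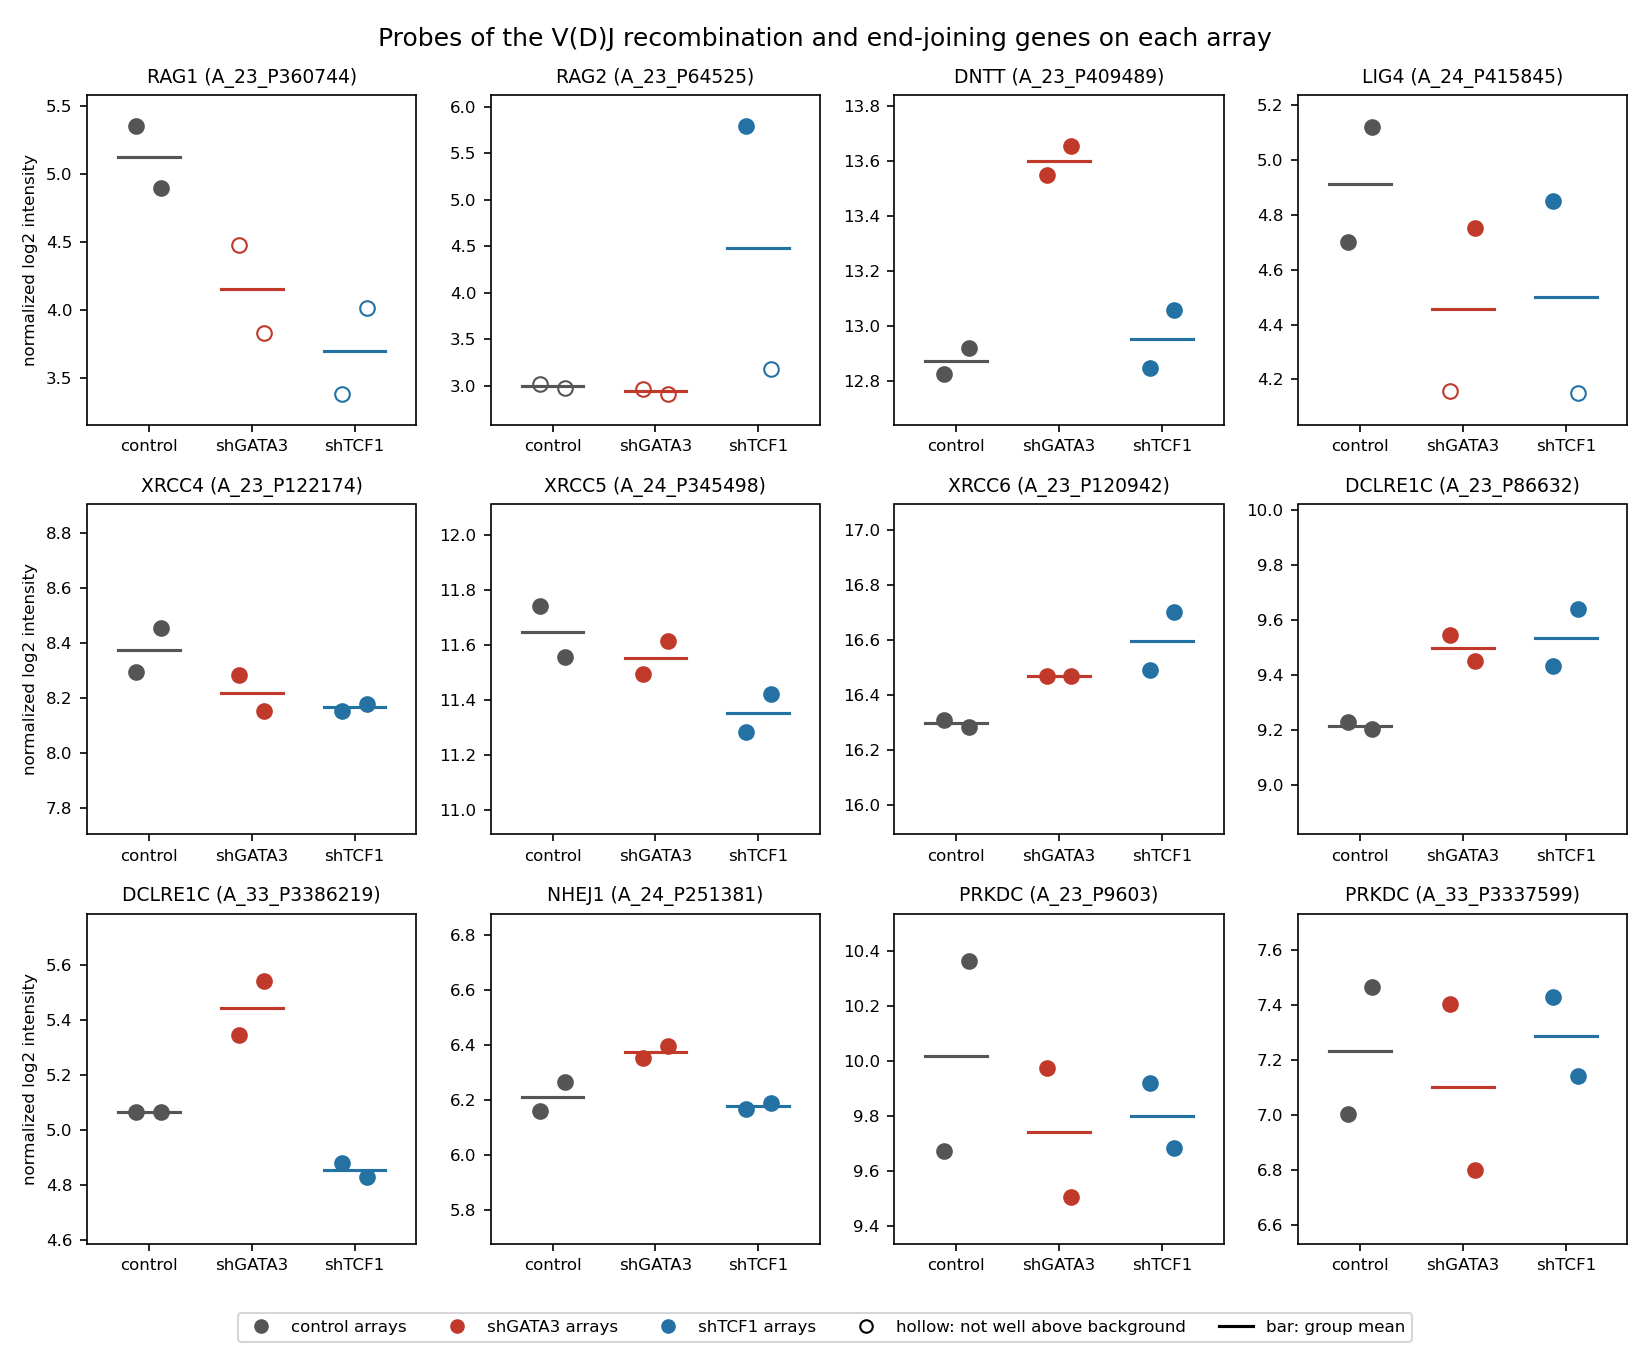
Normalized log2 intensity (vertical axes, each panel on its own scale) of the 12 probes on the 6 arrays, by group. Points are arrays, bars are group means, and hollow points were not well above background. DNTT stands higher on both arrays labelled shGATA3 (13.55 and 13.65) than on the other 4 (12.83 to 13.06), and RAG1 is filled on the control arrays alone.

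DNTT, the template-independent polymerase, was higher with shGATA3 and not with shTCF1. Its probe (A_23_P409489) read 12.83 and 12.92 in the control, 13.55 and 13.65 with shGATA3, and 12.84 and 13.06 with shTCF1. Both arrays labelled shGATA3 lay above the other 4, while control and shTCF1 overlapped. The group means were 12.87 ± 0.06, 13.60 ± 0.07 and 12.95 ± 0.15 (SD, n = 2).

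The rise with shGATA3 was 0.73 (SE 0.12, 95% interval 0.44 to 1.02), 1.66-fold, at an adjusted p of 0.0262. With shTCF1 the difference was 0.08 (95% interval -0.21 to 0.37, adjusted p = 0.662). The hairpins themselves differed by 0.65 (SE 0.12, 1.57-fold, adjusted p = 0.0345), a comparison in which position and hairpin cannot be told apart. The intensities before scaling were 9274 and 10830 in the control, 10300 and 11420 with shGATA3, and 6548 and 6980 with shTCF1. Control and shGATA3 overlapped there, with a log2 difference of 0.11 in place of 0.73, whereas between the hairpins it was 0.68 unscaled and 0.65 normalized. Most of the difference from the control thus entered with the scaling between arrays, and under 4 other scalings it ran from 0.67 to 0.78 with a call in each. With shGATA3 the call was lost without control replicate 1 or 2 or without shGATA3 replicate 1 or 2 (adjusted p 0.0666 to 0.145) and without the filter on dim probes (0.0722), within a range of 0.00239 to 0.568 over 17 alternatives, the highest from the deposited values. Those values gave DNTT differences of 4.496 with shGATA3 and 3.76 with shTCF1, neither called. Between the hairpins it was lost without any 1 of the 6 arrays (0.0647 to 0.127), without that filter (0.0838) and in a fit of those 2 groups alone (0.0728), within a range of 0.00289 to 1.

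The summed log2 level of the 13 T-lineage markers was highest with shGATA3, as was DNTT, at 131.4 to 132.0 against 127.9 to 129.5 in the control. With shTCF1, where DNTT overlapped the control, the sum was lower, at 126.7 to 127.6. The markers did not move as one with shGATA3. Higher means there than in the control were those of CD3D (15.95 and 15.13), CD3G (13.72 and 13.10), PTCRA (12.82 and 12.22) and CD4 (12.08 and 11.65). CD3E, LCK and the dim CD1A were higher too. CD1B had a mean of 5.68 there and 3.65 in the control, where it was not above background. CD2 (11.43 and 11.90) and the brighter CD8A probe (6.89 and 7.91) had lower means with shGATA3 than in the control. CD5 was lower as well, at 11.52 and 11.78 on the shGATA3 arrays against 12.08 and 11.92. CD7 (8.90 and 8.93) and CD1E, above background on no array, had lower means too. The dimmer CD8A probe had a higher mean (4.84 and 4.70). With shTCF1 the markers did not move as one either. CD2 had a mean of 9.71 there and 11.90 in the control. The brighter CD8A probe (7.18 and 7.91), LCK (13.73 and 13.84) and the dim CD1A and CD1B were lower too. CD3E (10.49 and 10.11), CD3G (13.74 and 13.10) and CD4 (12.54 and 11.65) had higher means with shTCF1 than in the control. So did CD3D, CD5, CD7, PTCRA, CD1E and the dimmer CD8A probe. Of the NK markers the brightest NCAM1 probe had means of 8.99 with shGATA3, 7.55 in the control and 6.76 with shTCF1. That of NCR1 had 6.59, 6.91 and 6.25, the last from arrays at 7.46 and 5.05. The summed level of the 4 NK markers was 21.4 to 21.7, 20.3 to 20.8 and 18.3 to 20.2 in the same order. Their part in the result was not tested. In bulk RNA, fewer cells of a type and less RNA per cell cannot be told apart.

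Because GATA3 and TCF1 bind DNA at short motifs, the 250 bases upstream of the DNTT start in RefSeq are shown (GRCh38.p14, chr10:96304184-96304433, plus strand, promoter window), with the letters of a GATA motif in capitals.
DNTT: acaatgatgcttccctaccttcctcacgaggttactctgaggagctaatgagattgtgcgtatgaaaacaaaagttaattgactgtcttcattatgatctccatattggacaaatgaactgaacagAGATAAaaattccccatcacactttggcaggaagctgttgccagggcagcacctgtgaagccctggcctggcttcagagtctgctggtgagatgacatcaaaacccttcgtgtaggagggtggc
The search took AGATAA or AGATAG, either also with T as its first base, for GATA, and CTTTGA for TCF1, on both strands. One match to AGATAA lay 124 bases upstream of the start, on the strand of the gene, and these letters did not hold CTTTGA. Of 35116 upstream windows of this length in RefSeq, 22.3% held a GATA motif and 11.2% CTTTGA, so a match is a description of the window and not a site. RAG2 also held 1 GATA match, AGATAA on the opposite strand 178 bases upstream, and no CTTTGA. The only RAG1 window in the table, which belongs to its outermost upstream start, held neither.

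RAG1, the subunit of the recombinase that cuts DNA, was measured above background on the control arrays alone. Its probe (A_23_P360744) read 5.36 and 4.90 in the control, 4.48 and 3.83 with shGATA3, and 3.38 and 4.01 with shTCF1. Both control arrays lay above all 4 hairpin arrays, and the hairpin groups overlapped. In intensity before normalization these were 46.5 and 34.9 in the control, 15.5 and 8.91 with shGATA3, and 5.74 and 10.2 with shTCF1. The dimmest probe of any gene that was well above background had an intensity of 11.3 to 19.4 on the 6 arrays. On shGATA3 replicate 1 the RAG1 spot (15.5) was brighter than that array's dimmest such probe (11.3) but did not pass the scanner's test at its own position. The other 3 hairpin values lay under theirs (12.6, 15.5 and 16.3).

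Because RAG1 passed the background filter through the control alone, it could only come out lower against it, and its differences from the control are given as a description. With shTCF1 the difference was -1.43 (SE 0.31, adjusted p = 0.032, and 0.101 without that filter). With the dim side set at the lowest signal above background, the group means differed at least 1.55-fold under this scaling only. With shGATA3 the difference was -0.97 (SE 0.31, 95% interval -1.73 to -0.22) and did not pass (adjusted p = 0.118). Set in a like way the group means differed 1.73-fold, with shGATA3 replicate 1 kept at its own reading above that lowest signal. The 1.73-fold is not a lower limit, since the interval reaches -0.22. The hairpins did not differ detectably (0.46, 95% interval -0.30 to 1.21, adjusted p = 0.426). The size depended on the scaling, from -0.46 to -1.91 with shTCF1 and from -0.37 to -1.29 with shGATA3. The call with shTCF1 was lost under quantile normalization (adjusted p = 0.0661), without the filter on dim probes, and without control replicate 1 (0.13), control replicate 2 (0.0634), shTCF1 replicate 1 (0.118) or shTCF1 replicate 2 (0.0537), within a range of 0.0154 to 0.541 over 16 alternatives.

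RAG2, the partner of RAG1, was above background on 1 array of 6, shTCF1 replicate 1, and was not tested. There it read 5.79, with an intensity of 45.9, against 3.18 (intensity 4.33) on the other shTCF1 array. The control arrays gave 3.02 and 2.98 and the shGATA3 arrays 2.97 and 2.91, intensities of 2.96 to 4.47.

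**Figure D2:**
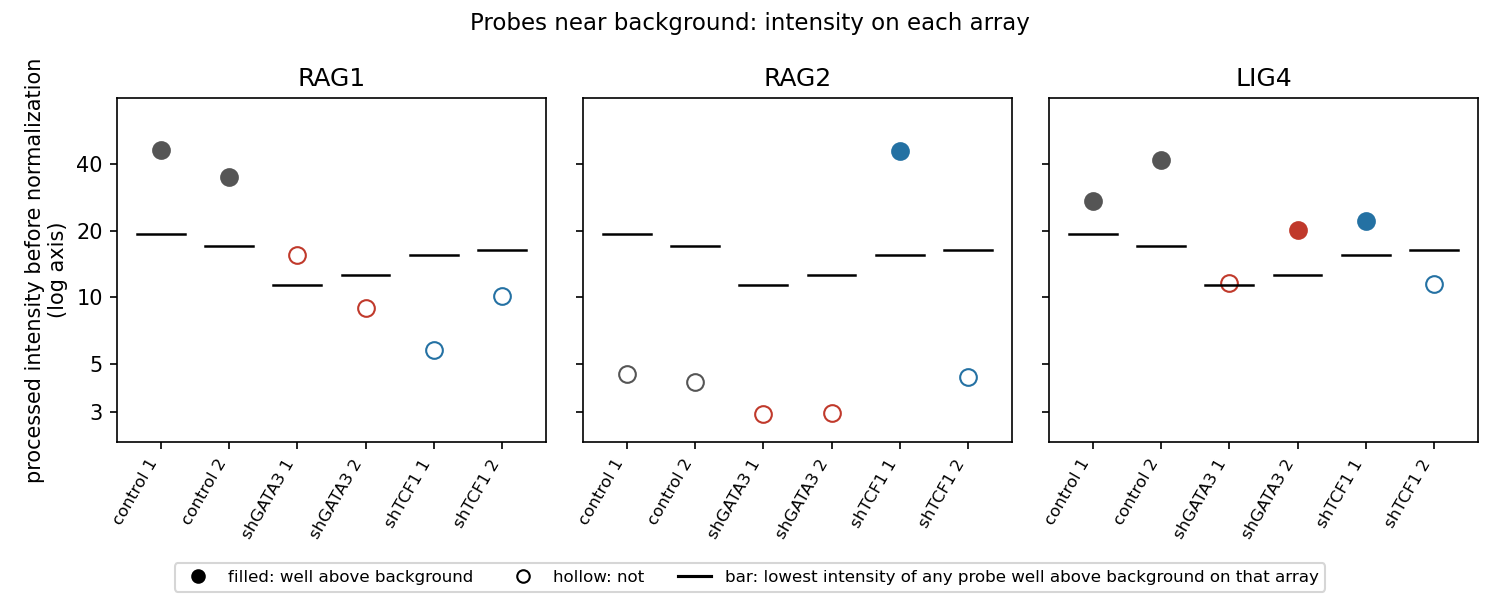
Processed intensity before normalization (log axis) of the RAG1, RAG2 and LIG4 probes on each array. Filled points were well above background by the scanner's own test at that spot, hollow points were not, and each bar is the lowest intensity of any probe well above background on that array (11.3 to 19.4). RAG1 is filled on the control arrays alone (46.5 and 34.9), RAG2 on shTCF1 replicate 1 alone (45.9).

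The genes next to RAG1 and RAG2 on the chromosome gave no call against the control. In RefSeq the order is LDLRAD3, COMMD9, PRR5L, TRAF6, RAG1, RAG2 and IFTAP. Of these 5 neighbours 4 were tested, with 0 calls in both comparisons with the control. TRAF6, a signalling adaptor, differed by 0.05 and 0.02 (adjusted p 0.8 and 0.915), IFTAP by 0.06 and 0.01, and COMMD9 by -0.14 and 0.03. PRR5L read 4.14 and 4.53 in the control, 4.88 and 4.82 with shGATA3 and 3.49 and 3.91 with shTCF1, where it was not well above background. It passed the background filter only through shGATA3, so its values against shTCF1 are a description too. Under this scaling it was at least 1.28-fold higher with shGATA3 (adjusted p = 0.0256), and the measured difference ran from 0.34 to 1.51 under 4 others. That call was lost without the filter, with the deposited values, under quantile normalization and without shGATA3 replicate 1 or 2 or shTCF1 replicate 1 (adjusted p up to 0.107 on leaving out an array).

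The Ku genes differed from the control in opposite directions, by amounts that did not pass the test. XRCC6, which encodes Ku70, read 16.31 and 16.28 in the control, 16.47 and 16.47 with shGATA3, and 16.49 and 16.70 with shTCF1. All 4 hairpin arrays lay above the controls, with differences of 0.17 (95% interval -0.10 to 0.45, adjusted p = 0.366) and 0.30 (0.03 to 0.57, adjusted p = 0.115). They were near 0 under quantile normalization (0.0051 and 0.0209) and with normexp (0.0245 and 0.0436). XRCC5, which encodes Ku80, read 11.74 and 11.56 in the control, 11.49 and 11.62 with shGATA3 and 11.28 and 11.42 with shTCF1. The shTCF1 arrays lay below the controls by 0.30 (95% interval -0.59 to -0.0033, adjusted p = 0.139), and shGATA3 overlapped them (-0.09, adjusted p = 0.65). No spot was saturated, although XRCC6 reached an intensity of 111800.

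PRKDC, which encodes the kinase that Ku recruits, varied more within the control than between the groups. Its brighter probe (A_23_P9603) read 9.67 and 10.36 in the control, 9.98 and 9.51 with shGATA3 and 9.92 and 9.68 with shTCF1. The second probe (A_33_P3337599) read 7.002 and 7.46, 7.41 and 6.80, and 7.43 and 7.14, with control replicate 2 again above replicate 1. The groups overlapped on both probes. The brighter probe differed by -0.28 with shGATA3 (95% interval -0.93 to 0.38, adjusted p = 0.545) and -0.22 with shTCF1 (-0.87 to 0.44, adjusted p = 0.599), and both signs turned without control replicate 2 (0.07 and 0.13).

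DCLRE1C, the hairpin-opening nuclease Artemis, had 2 probes that were both higher with shGATA3 than in the control but disagreed with shTCF1. The brighter (A_23_P86632) read 9.23 and 9.20 in the control, 9.54 and 9.45 with shGATA3 and 9.43 and 9.64 with shTCF1. All 4 hairpin arrays stood above the controls, by 0.28 (95% interval 0.00 to 0.56, adjusted p = 0.185) and 0.32 (0.04 to 0.60, adjusted p = 0.107). The other probe (A_33_P3386219) read 5.07 and 5.07, 5.34 and 5.54, and 4.88 and 4.83. Against the control it differed by 0.38 with shGATA3 (adjusted p = 0.0996, limma) and by -0.21 with shTCF1 (adjusted p = 0.224). It was higher with shGATA3 than with shTCF1 by 0.59 (SE 0.11, 1.51-fold, adjusted p = 0.0372), where the brighter probe differed by -0.04 (95% interval -0.32 to 0.24, adjusted p = 0.877). Both probes carry the same accession, and which transcripts each binds was not tested.

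The ligation genes showed small differences. XRCC4, the scaffold of the ligase, read 8.29 and 8.45 in the control, 8.28 and 8.15 with shGATA3, and 8.15 and 8.18 with shTCF1. Both hairpin groups lay below the controls, by amounts that did not pass (-0.16, 95% interval -0.43 to 0.12, adjusted p = 0.413, and -0.21, -0.48 to 0.06, adjusted p = 0.235). LIG4, the ligase that closes the joint, was dim, at 4.70 and 5.12, 4.16 and 4.75, and 4.85 and 4.15. It was above background on 4 arrays, both controls, shGATA3 replicate 2 and shTCF1 replicate 1, and the intervals were wide (-0.46, -1.21 to 0.30, and -0.41, -1.16 to 0.34). NHEJ1, the XRCC4-like factor XLF, read 6.16 and 6.27 in the control, 6.35 and 6.39 with shGATA3, and 6.17 and 6.19 with shTCF1. The shGATA3 arrays lay above the rest without passing the test (0.16 over the control, adjusted p = 0.345, and 0.20 over shTCF1, adjusted p = 0.297).

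Groups that merely do not overlap were common on these arrays. Of the 9 tested members 6 did not overlap between shGATA3 and control, 5 between shTCF1 and control and 4 between the hairpins, where 63%, 69.2% and 53.4% of all genes tested did not.

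**Figure D3:**
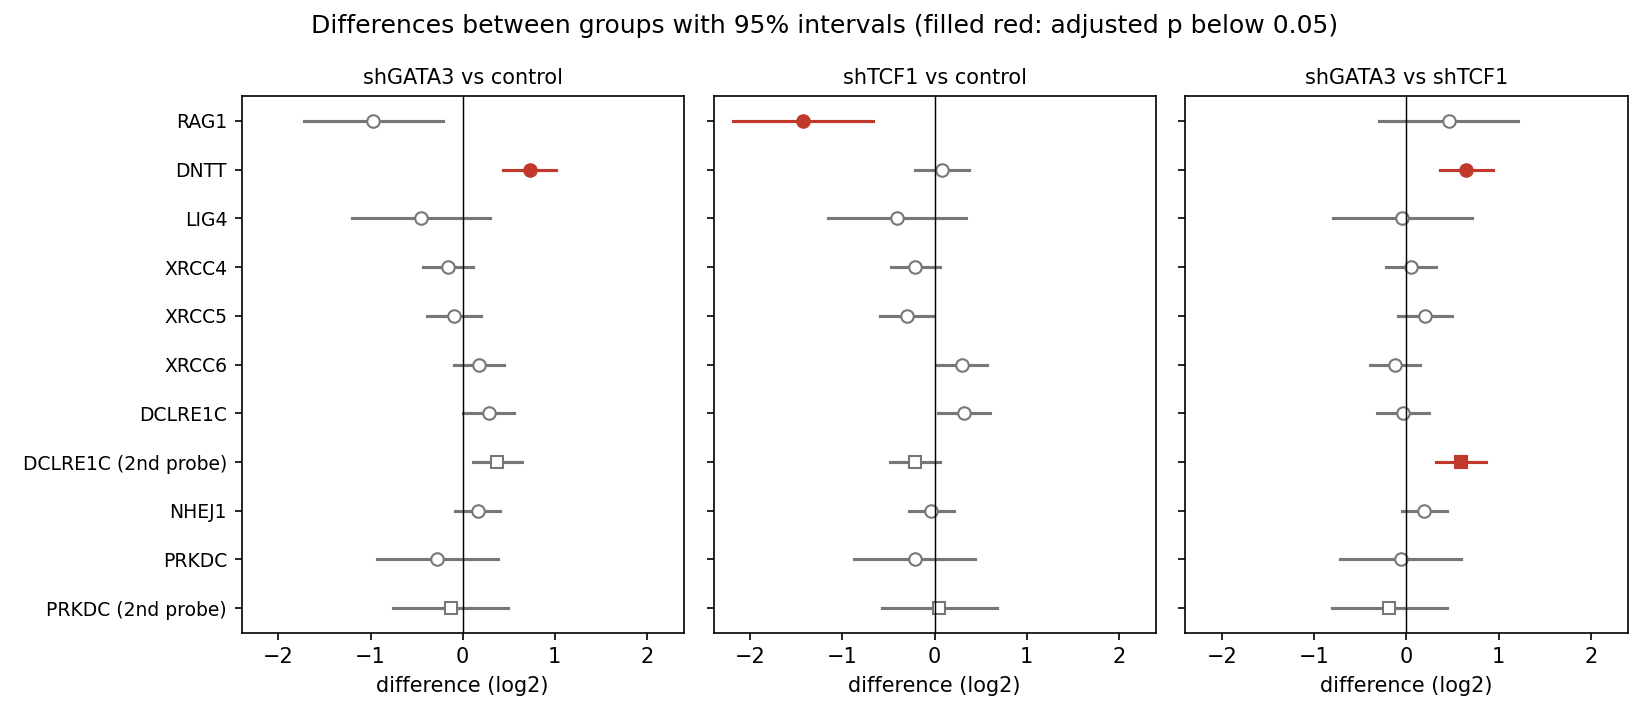
Differences between groups (log2, horizontal axes) with 95% intervals from limma for the 11 tested probes, 1 panel per comparison. Circles stand for the brightest probe of a gene, squares for its other probe, and filled red marks an adjusted p below 0.05. DNTT is filled in the panels of shGATA3 with control and of shGATA3 with shTCF1 (0.73 and 0.65), RAG1 in that of shTCF1 with control (-1.43), and the dimmer DCLRE1C probe in that of shGATA3 with shTCF1 (0.59).

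Some 59 further genes of DNA repair and of RAG expression give the setting, of which 56 were tested. With shGATA3 6 were called (2 higher, 4 lower) beside the 6.93% of all genes, with shTCF1 8 (3 higher, 5 lower) beside 16.2%, and between the hairpins 4 (1 higher, 3 lower) beside 6.58%. Their median differences were -0.08, -0.05 and 0.01.

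Of 11 tested genes that signal a break or shield its ends, 2 fell with shGATA3 and 4 with shTCF1, and none was called higher. Of all 14488 genes tested 1004 (6.93%) were called with shGATA3, 600 of them lower. With shTCF1 2354 (16.2%) were called, 1447 of them lower. TP53BP1 and H2AX, named here after their values were seen, differed the other way with shTCF1 (0.37 and 0.33) without passing (adjusted p 0.0819 and 0.0862). RNF168, a ubiquitin ligase that marks chromatin around a break, read 9.37 and 9.36 in the control, 8.04 and 8.12 with shGATA3 and 8.29 and 8.32 with shTCF1. It fell by 1.29 (SE 0.10, adjusted p = 0.00365) and 1.06 (SE 0.10, adjusted p = 0.00528), and remained called without any 1 array. RIF1, which limits trimming of the ends, read 9.16 and 9.19, 8.68 and 8.54, and 8.48 and 8.30.

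RIF1 fell by 0.57 with shGATA3 (adjusted p = 0.043) and 0.79 with shTCF1 (adjusted p = 0.0125). The first call held under 1 of 4 other scalings and was lost without any 1 array, the second was lost without control replicate 1 or 2 or shTCF1 replicate 2. With the deposited values both differences changed sign, to 1.86 and 1.44, and neither was called. ATM, the kinase that starts the break response, had a brighter probe at 8.48 and 8.38, 8.12 and 8.19, and 7.70 and 7.68. It fell by 0.74 with shTCF1 (adjusted p = 0.0107, lost without control replicate 1, 0.0723), with -0.28 and an adjusted p of 0.151 for shGATA3. Its other probe fell with both hairpins, by 0.84 (adjusted p = 0.0184) and 1.23 (adjusted p = 0.00584). RNF8, a ubiquitin ligase that acts before RNF168, fell by 0.46 with shTCF1 (adjusted p = 0.0466), a call that held under 2 of 4 other scalings and was lost without control replicate 1 or 2 or shTCF1 replicate 1 or 2.

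Of the accessory end-joining genes the helicase WRN read 10.06 and 10.13 in the control, 9.79 and 9.74 with shGATA3, and 9.60 and 9.70 with shTCF1. All 4 hairpin arrays lay below the controls, and WRN fell by 0.44 with shTCF1 (adjusted p = 0.0362), a call lost without any 1 control or shTCF1 array. With shGATA3 the difference was -0.33 (adjusted p = 0.112). The 10 genes of alternative end joining gave 0 calls in limma, with 1, 2 and 1 at an unadjusted p under 0.05 in the 3 comparisons. Their differences ran from -0.41 to 0.28, -0.44 to 0.40 and -0.27 to 0.37. The 11 genes of homologous recombination also gave 0 calls, with 1, 3 and 0 at an unadjusted p under 0.05. Both lists stand beside 3909, 4978 and 3321 of all 14488 genes tested with an unadjusted limma p under 0.05.

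Among 11 cofactors and regulators of RAG, FOXO1 moved in opposite directions with the hairpins after normalization. FOXO1, a transcription factor known to activate the RAG genes in B-cell precursors, read 7.74 and 7.78 in the control, 7.16 and 7.20 with shGATA3, and 8.20 and 8.35 with shTCF1. It fell by 0.58 with shGATA3 (adjusted p = 0.0334) and rose by 0.51 with shTCF1 (adjusted p = 0.0274), both lost without any 1 array of the groups compared. The hairpins differed by -1.09 (SE 0.10, adjusted p = 0.00476), which was called without any 1 array as well. Before scaling FOXO1 differed from the control by -1.21 with shGATA3 and -0.12 with shTCF1, and by -1.08 between the hairpins. The rise with shTCF1 thus entered with the scaling between arrays, at 0.49 to 0.58 under 4 other scalings. RAG1 itself read under the control on all 4 hairpin arrays, where it was not well above background. Any link between FOXO1 and RAG1 in these cells was not tested.

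SATB1, a chromatin organizer of thymocytes, read 8.10 and 8.34 in the control, 9.73 and 9.32 with shGATA3, and 9.14 and 8.90 with shTCF1. It rose by 1.31 (adjusted p = 0.0175, lost without control replicate 1 or shGATA3 replicate 1) and 0.80 (adjusted p = 0.0356, lost without any 1 control or shTCF1 array). GFI1B, a repressor, read 7.34 and 7.23, then 5.77 and 6.52, then 7.57 and 7.57. It fell by 1.14 with shGATA3 (adjusted p = 0.0481) and stood 1.43 lower there than with shTCF1 (difference -1.43, adjusted p = 0.0272). The first call was lost without control replicate 1 or 2, shGATA3 replicate 1 or shTCF1 replicate 1 or 2 and the second without shTCF1 replicate 1 or 2, and leaving out shGATA3 replicate 1 or 2 gave -0.76 and -1.52 with shGATA3 against control. Under 4 other scalings that difference ran from -0.62 to -1.17, with 1 call. ERG, an ETS factor, was lower with shGATA3 than with shTCF1 (difference -0.60, adjusted p = 0.0314), a call lost without any 1 array. The HMG-box proteins HMGB1 and HMGB2, which bend DNA for the recombinase, differed by 0.18 and -0.04 with shGATA3 and by -0.01 and -0.05 with shTCF1, all uncalled.

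**Figure D4:**
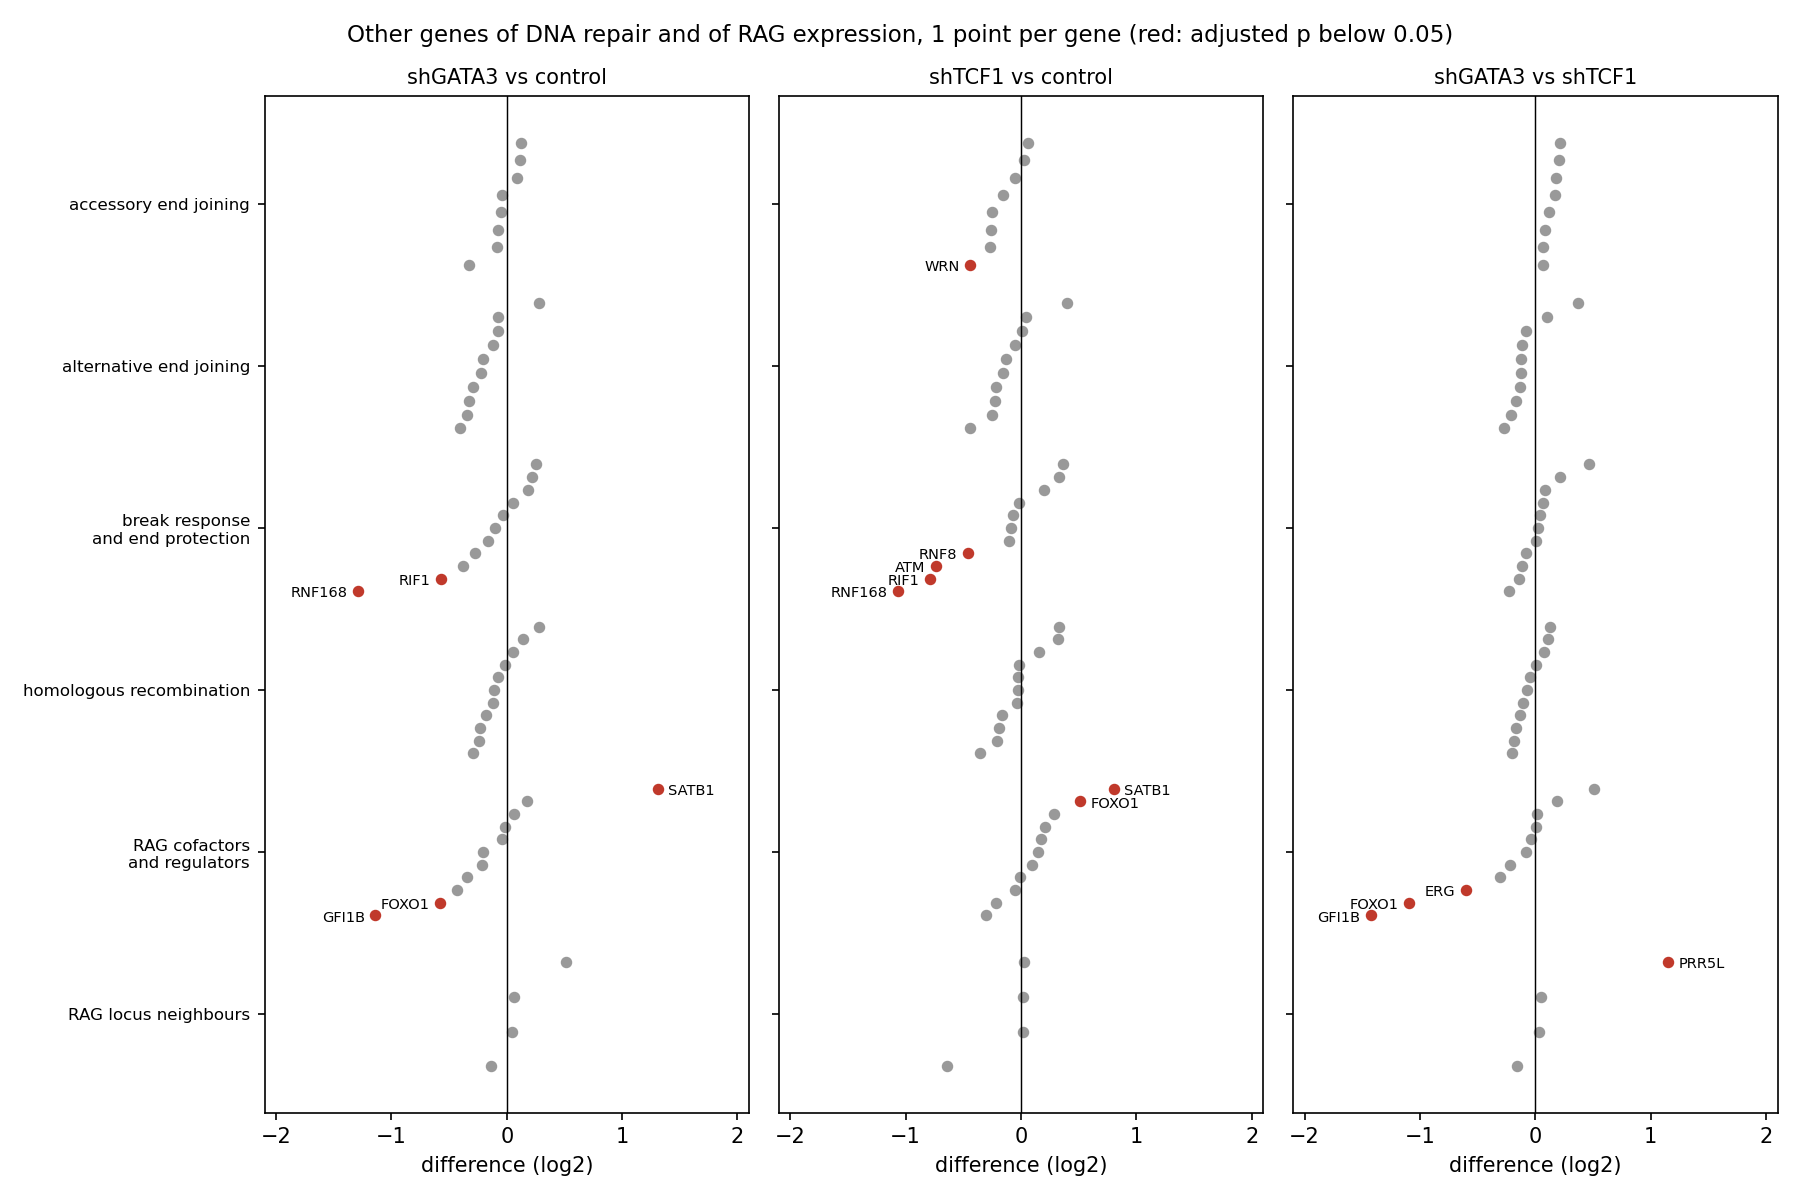
Differences between groups (log2, horizontal axes) for 55 tested genes of the 6 lists, 1 point per gene spread within its list for legibility, red and named where the adjusted p was below 0.05. The named genes of the break response all lie left of 0 with both hairpins (RNF168 at -1.29 and -1.06). FOXO1 lies left of 0 with shGATA3 (-0.58) and right of it with shTCF1 (0.51, or -0.12 before scaling).

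The genes whose values ran most like those of DNTT over the 6 arrays were B3GALT4 (Pearson r = 0.9985), SELENOH (0.9952) and CAMK2N2 (0.9943), and 149 tested probes exceeded 0.95. For RAG1 they were LZTR1 (0.9988), TRAPPC3 (0.998) and GRAP2 (0.9952), and 331 probes exceeded 0.95. These are descriptions over 6 arrays in 3 groups that share 1 slide and 1 normalization, ranked among 14488 genes. RAG1 was well above background on the control arrays alone, so its values on the hairpin arrays are readings near background. RAG2 was left out because it had no tested probe.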

How the data were processed

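Cy3-labelled cRNA (100 ng RNA) was hybridised to custom Agilent arrays. Intensity values are, per the file headers, those of Feature Extraction 10.7.1.1 (the submitters' processing notes name 9.1), background-subtracted and not scaled between arrays. The deposited scanner output also held median spot and background intensities, and the 0 or 1 marks for background, saturation and outliers. The authors deposited log2 values too, described as VSN-normalized, used only as an alternative because the control 2 and shGATA3 2 arrays correlated better with another array's column than with their own.

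Control spots and outlier-marked spots were left out (71 probes had none left) and spots of a probe averaged. VSN (variance stabilization) was written anew in R 4.3.3, in its limit log2(intensity + offset) plus a shift per array, since the likelihood rose without end towards it (trimming quantile 0.9, 7 iterations, 5 strata). Testing was limited to probes that passed the background mark in both replicates of some group (31131 probes, 14488 genes). Its brightest tested probe stands for a gene. limma 3.58.1 fitted 1 model over 6 arrays, group only (3 residual, 2.97 prior degrees of freedom), two-sided, Benjamini-Hochberg over all tested probes of a contrast. An exact permutation test of 2 against 2 arrays cannot go below p = 0.333. Probes were named through RefSeq (GRCh38.p14, 25682 of 57176 probes). The scanner files use hg19, so gene coordinates are not given. Of the 10 genes 8 have an upstream window in the RefSeq table.

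Members, lists and named genes were chosen with earlier results of these data known: every member and both targets are named, of the lists those called (1 such gene is not reported here), and for RAG1 and DNTT the 3 most correlated genes. The code was tested on simulated data. Replicate numbers did not pair samples (correlation of same-numbered deviations -0.04 to 0.05). Alternatives were 4 other scalings, the deposited log2 values, other filters, the mean of a gene's probes, an intensity trend, 2-group fits, a replicate block and leaving out each array. The number of arrays limits the precision. The columns of values per sample left unused numbered 0.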

Additional observations from a re-analysis of the deposited data

Results flagged for a closer look

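For 5 genes, 1 of them with a bound in place of a size, the arrays labelled shGATA3 differed from those labelled shTCF1 by the direct limma comparison. No control array enters that difference, but the control arrays enter the estimate of its spread. Position and hairpin cannot be told apart in it, and GATA3 was not detectably lower on the arrays labelled shGATA3. The difference was 0.65 for DNTT (0.73 over the control with shGATA3, 0.08 with shTCF1). It was -1.09 for FOXO1 (-0.58 and 0.51, or -1.21 and -0.12 before scaling), -0.60 for ERG (-0.43 and 0.18) and -1.43 for GFI1B (-1.14 and 0.29). For PRR5L the measured difference was 1.15, but its shTCF1 arrays were not above background and it was tested only through shGATA3. It is thus given as a bound of at least 1.28-fold under the main scaling.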

How the results depend on the processing

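Call counts depended on the setting. Where counts are given for the 3 comparisons they are in the order shGATA3 with control, shTCF1 with control and shGATA3 with shTCF1. With normexp on the median signal 3 and 3 members were called in the first 2 comparisons, 17 and 7 pathway genes in the last 2, and 4280 and 3281 probes in the first and last (main 2130, 5274 and 1925). With no filter on dim probes 0 members were called in each, 1, 3 and 1 pathway genes, and 560, 2272 and 901 probes. The deposited log2 values gave 0 calls of members, pathway genes and probes in all 3. With an intensity trend 2 members and 15 pathway genes were called with shTCF1, and 3910 and 3273 probes in the first and last comparisons. Quantile normalization and the filter on all arrays, which drops RAG1, left 0 members with shTCF1. Fits of 2 groups gave 3 pathway genes with shGATA3, and 0 members and 1214 probes between the hairpins. Leaving out 1 array gave 0 to 1, 0 to 1 and 0 to 0 members, 1 to 3, 1 to 8 and 1 to 3 pathway genes, and 437 to 1454, 865 to 4930 and 701 to 1214 probes.

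Of the probes called against the control 42.1% and 42.6% were higher, and 53.6% and 54.8% under 75th percentile scaling or 53% and 53.3% under quantile normalization. With the replicate number as a block, 2 and 4 pathway genes were called against the control and 1328 probes with shGATA3, and the calls of RAG1 and DNTT held.

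Some differences changed sign, among them those of RIF1, which was called lower with both hairpins (-0.57 and -0.79). With the deposited values XRCC4 gave 1.07 and 0.93 against the control, XRCC5 3.20 and 2.93, DCLRE1C -0.0258 and -0.0093, RIF1 1.86 and 1.44, NHEJ1 -0.10 and WRN 0.13 with shGATA3, and RNF168 0.0471 between the hairpins. GATA3 with shGATA3 gave 0.0005 under 75th percentile scaling. NHEJ1 with shTCF1 gave 0.0299 under 75th percentile scaling, 0.0471 under quantile normalization and 0.0309 with normexp. Between the hairpins DCLRE1C gave 0.0202 with normexp and 0.28 over both probes. Leaving out 1 array moved PRKDC from -0.623 to 0.0683 with shGATA3, from -0.5616 to 0.1298 with shTCF1 and from -0.2954 to 0.1725 between the hairpins. With shTCF1 it moved DNTT from -0.0266 to 0.1855 and NHEJ1 from -0.0875 to 0.0197. Between the hairpins it moved LIG4 from -0.3935 to 0.3062, XRCC4 from -0.0115 to 0.1167, DCLRE1C from -0.1412 to 0.066 and RNF8 from -0.018 to 0.184. The cause of these changes was not tested. The normexp on mean signals was not run, since the scanner output used here holds median signals, and a slide block was not run, since all arrays share 1 slide. Signal over background limits RAG1, RAG2, LIG4 and PRR5L.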
